A study of Mus musculus with 8 samples.

Results

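The nuclear-encoded subunits of respiratory complex III, cytochrome c, respiratory complex IV and the mitochondrial ATP synthase were examined in proliferating C2C12 cells, a mouse myoblast line, after silencing of the long non-coding RNA Pvt1. Members were all genes of the array design whose symbol begins with Uqcr, with Cox followed by a digit from 4 to 8, or with Atp5, together with Cyc1 and Cycs. This rule took 45 of 36693 gene symbols, measured by 69 probes, and used no measured value. It placed 9 genes in complex III, 1 in cytochrome c, 17 in complex IV and 15 in ATP synthase. The other 3, Atp5s, Atp5sl and Atp5c1-ps, share the start of the symbol but are not subunits of the enzyme. Transcripts were quantified on 8 one-colour Agilent arrays, each hybridised with RNA of 1 culture at passage 10. In the 4 silenced cultures LNA GapmeRs against Pvt1, antisense oligonucleotides that make the cell cut their target RNA, had been transfected with a cationic lipid. The 4 control cultures (Mock) had received negative control GapmeRs with the same lipid. C2C12 is an immortal line, so the 8 cultures are not separate animals.

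Complex III passes electrons from ubiquinol to cytochrome c, and complex IV (cytochrome c oxidase) passes them on to oxygen. Both pump protons across the inner mitochondrial membrane, and ATP synthase uses the return of these protons to make ATP. Most subunits are encoded in the nucleus and a few core ones in mitochondrial DNA (mtDNA). Skeletal muscle and heart replace several subunits of complex IV with tissue-restricted forms when they mature, while dividing myoblasts mainly use the ubiquitous forms.

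Signal is given below as log2 of the processed spot intensity after quantile normalization between arrays, and a difference is silenced minus control on that scale, so that 1 is a doubling of signal. A gene is represented by its tested probe with the highest mean signal over all 8 arrays, so that silenced values enter this choice. It is called where limma's p-value, adjusted by the Benjamini-Hochberg method over all 28649 tested probes, was under 0.05. Levels of different probes are not compared, since each probe has its own brightness. The brightest Pvt1 probe fell from 9.86 ± 0.30 (SD, n = 4) to 7.0 ± 0.63 (SD, n = 4), a difference of -2.86 (SE 0.32, limma adjusted p 0.000682). Positive and significant spots made up 58.8% to 62.5% of each control array and 59.8% to 61.0% of silenced arrays 1 to 3, against 51.6% of silenced array 4, the dimmest. Markers of myoblasts were present, 6 of 8 well above background on every control array and 7 of 8 on every silenced array, while Myf5 was not well above background on any array. Myod1, Des and Cdh15 were below every control on all silenced arrays, and Pax7 and the background signal of Myf5 were above. Their summed linear signal was 139620 to 169340 in controls and 101350 to 129300 in silenced cells. Of 15 hepatocyte markers, 8 were above every control on all silenced arrays, and their summed signal was 1093 to 1949 in controls and 5029 to 6235 in silenced cells. Among them Alb, Fgb, Ahsg, Mup1 and Serpina1a were well above background on all 4 silenced arrays and on none of the controls, whereas Apoa1, Apob, Apoc3, Fga and Tat were not on any array. Of 6 macrophage markers Cd68 was above every control on all silenced arrays, Ptprc was so on silenced arrays 1, 3 and 4, Csf1r and Itgam were below every control, Adgre1 and Lyz2 gave background signal throughout, and the summed signal was 5795 to 6558 in controls and 6713 to 9600 in silenced cells. That of 5 adipocyte markers was 353 to 523 in controls and 441 to 745 in silenced cells. The part of these markers in the results below was not tested. Arrays lay in 2 rows of the slide, 3 controls with silenced array 1 in the first and control 4 with the other 3 silenced arrays in the second, so that row and group largely coincided.

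Atp5d, the delta subunit of the ATP synthase central stalk, was the only member called by its brightest probe, and it was lower in silenced cells. Of 44 tested members, 1 was lower (2.27%), where 14.0% of 19284 tested genes were lower. None was higher, where 6.02% of all genes were, and at an unadjusted p under 0.05 limma gave 4 members higher and 2 lower, beside 11.4% and 21.6% of all genes. The remaining member, Cox8c, was not positive and significant on any array. Differences of the tested members ran from -0.86 to 0.86 with a median of 0.14, beside a median of -0.09 over all genes, and 32 of 44 (72.7%) lay above that all-gene median. Members whose silenced values were all above every control numbered 5 (Cox6b2, Cox4i1, Cox6a1, Atp5g2 and Atp5o), where 7.12% of all genes showed this. Of these, Cox4i1 and Cox6a1 had values on 3 silenced arrays only, and Cox6b2 was dim. On the lower side 1 member (Atp5d) was without overlap, beside 3639 of 19284 genes. The brightest probe was well above background on all 8 arrays for 41 of the 44. The plot of differences by complex gives each member with its error.

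**Figure D1:**
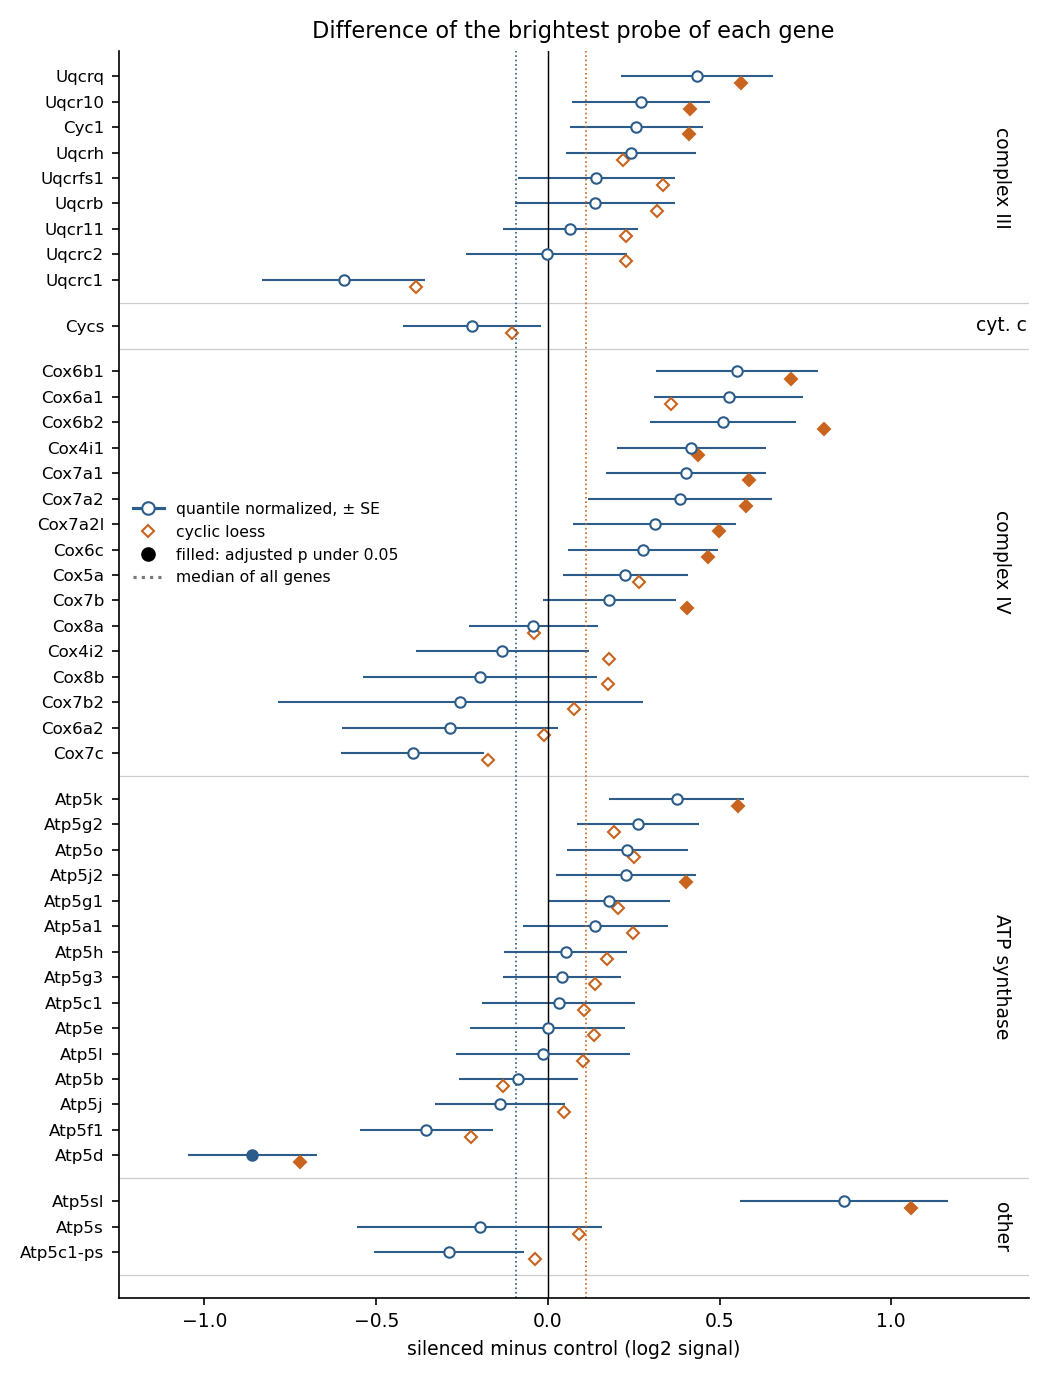
Difference in log2 signal, silenced minus control, of the brightest probe of each of the 44 tested members. Circles with bars are the quantile-normalized difference ± SE (n = 4 arrays a group, fewer where a spot was missing), diamonds the difference after cyclic loess, filled symbols an adjusted p under 0.05, and dotted lines the median of all genes under each normalization. Atp5d is the single filled circle, while 14 members have a filled diamond to the right of 0.

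The number of members called higher depended on how the arrays were normalized and on silenced array 4. After cyclic loess 14 members were higher (31.8%) and 1 lower, beside 22.2% of all genes higher and 14.3% lower. With each array shifted to a common 75th percentile 28 members were higher (63.6%) and none lower, beside 29.9% of all genes higher. From the authors' own series values 14 of 43 members were higher (32.6%) and 2 lower, beside 21.2% of 15945 genes higher. Without masking of dim spots 16 were higher (19.8% of all genes), with the robust trended prior of limma 4 (8.22%) and with normexp background correction 2 (7.09%). Leaving out silenced array 4 gave 6 higher (13.6%), beside 15.3% of all genes. With the row of the slide as a block no member was called, beside 2.42% of all genes higher and 5.97% lower. Within the first row the median difference was 0.22 for members and 0.06 for all genes, and within the second 0.09 and -0.19. The median over all genes moved from -0.09 to 0.11 with cyclic loess and to 0.29 with the percentile shift, and that of the members from 0.14 to 0.22 and to 0.66.

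Each array's median deviation from the gene means shows the same spread. For the 44 members it was -0.21, -0.07, 0.10 and -0.03 on the control arrays and 0.14, 0.02, 0.33 and -0.23 on the silenced arrays. The first 3 silenced arrays lay above controls 1, 2 and 4, silenced array 2 lay below control 3, and silenced array 4 was below every control. Over all genes the medians were -0.12, 0.09, 0.17 and 0.10 on the control arrays and 0.08, 0.05, 0.20 and -0.55 on the silenced arrays. On silenced array 4 the members were thus less low than all genes were. The low place of this array was not kept by every normalization. Its median over tested probes was 8.29 after quantile normalization, where the other arrays had 8.74 to 9.03. After cyclic loess it was 9.06, the highest, where the others had 8.66 to 8.80.

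**Figure D2:**
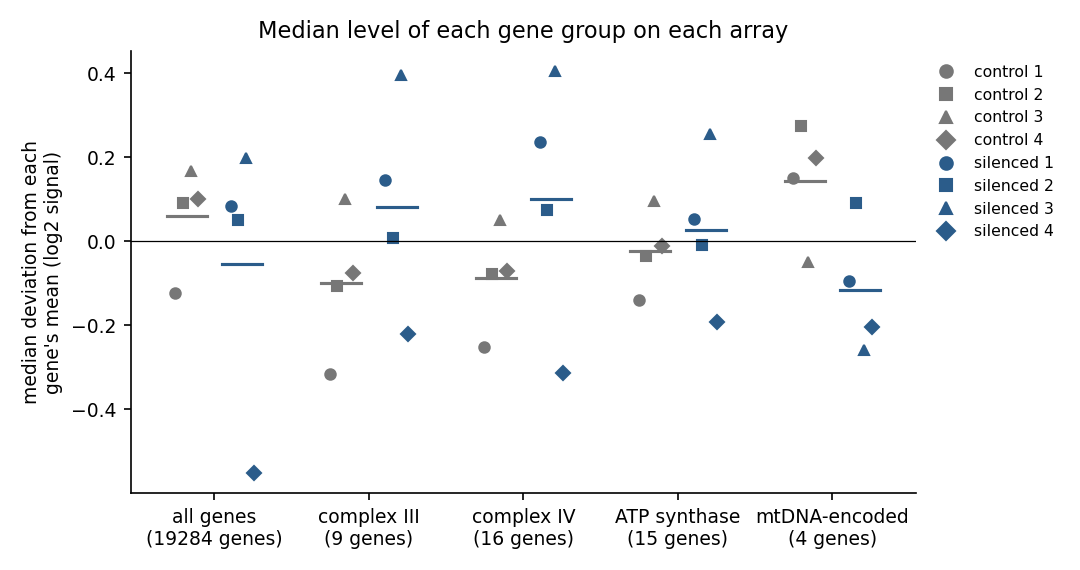
Median over the genes of each group of the deviation from the gene's own mean over 8 arrays (log2 signal), per array. Grey symbols are control arrays, blue symbols silenced arrays, and bars the mean of 4 arrays. Silenced array 4 (blue diamond) is lowest of all arrays for all genes, at -0.55, and of the 5 groups plotted all genes and the 4 mtDNA-encoded genes have a lower mean in silenced cells than in controls.

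In complex III no gene was called, and the differences ran from -0.59 (Uqcrc1) to 0.43 (Uqcrq) with a median of 0.14. Its core comprises Uqcrc1 and Uqcrc2, which face the matrix, the Rieske iron-sulphur protein Uqcrfs1 and the haem protein Cyc1. Uqcrc1 read 14.25, 14.58, 15.20 and 14.61 on the control arrays and 14.13, 14.27, 14.00 and 13.86 on the silenced arrays in log2 signal. All silenced arrays but array 2 were below every control, and control array 3 was the highest. The difference was -0.59 (SE 0.24, limma adjusted p 0.1), and with only spots well above background it was -0.66 and called. Its partner Uqcrc2 had a log2 signal of 13.75, 13.93, 14.23 and 13.99 on the control arrays and 14.19, 13.58, 14.37 and 13.75 on the silenced arrays. Its groups overlapped throughout, with a difference of -0.00 (SE 0.23), and Uqcrfs1 differed by 0.14 (SE 0.23).

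Cyc1, cytochrome c1, had a pair of tested probes. The brighter read 14.80, 15.03, 15.16 and 15.03 on the control arrays and 15.41, 15.22, 15.42 and 14.99 on the silenced arrays in log2 signal. Silenced arrays 1, 2 and 3 lay above every control, array 4 did not, and the difference was 0.26 (SE 0.19, limma adjusted p 0.373), against 0.41 (adjusted p 0.0208) with cyclic loess. The dimmer Cyc1 probe (chromosome 15, 76175938 to 76175997, build mm9) read 14.82, 15.14, 15.39 and 15.16 on the control arrays and 15.11, 15.23, 14.95 and 14.85 on the silenced arrays in log2 signal, and its difference was -0.09 (SE 0.20). The 2 probes thus differed in sign, and neither passed the test. In controls alone the second probe was the brighter, at a mean of 15.13 against 15.00, so the sign given to the gene rests on the choice of probe.

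The 5 small subunits of complex III, Uqcrb, Uqcrh, Uqcrq, Uqcr10 and Uqcr11, had differences between 0.07 and 0.43, all above the all-gene median, and none was called. Uqcrq, the ubiquinone-binding protein QP-C, read 14.86, 15.04, 14.98 and 15.07 on the control arrays and 15.53, 15.27, 15.87 and 15.02 on the silenced arrays in log2 signal. Silenced arrays 1 to 3 were above every control and array 4 lay among them. The difference was 0.43 (SE 0.22, limma adjusted p 0.188), 0.56 (adjusted p 0.0138) with cyclic loess, and 0.57 (adjusted p 0.0483) without silenced array 4. Uqcr10 read 14.86, 15.04, 15.27 and 15.14 on the control arrays and 15.36, 15.31, 15.64 and 15.09 on the silenced arrays, with a difference of 0.27 (SE 0.20) on the log2 scale. Uqcrh, the hinge protein, differed by 0.24 (SE 0.19) and Uqcr11 by 0.07 (SE 0.20). Uqcrb, which takes part in binding ubiquinone, read 14.22, 14.60, 14.74 and 14.47 on the control arrays and 14.68, 14.55, 15.10 and 14.24 on the silenced arrays on its brightest probe, with overlapping groups and a difference of 0.14 (SE 0.23). Another bright probe read 12.82, 12.69, 12.91 and 12.76 on the control arrays and 13.03, 12.88, 13.03 and 12.26 on the silenced arrays and differed by 0.0037 (SE 0.22). A dim further probe of Uqcrb read 5.23, 5.70, 6.42 and 5.92 on the control arrays and 4.32, 4.14 and 5.05 on silenced arrays 1, 2 and 3 in log2 signal and had a fitted difference of -1.31 (SE 0.34, limma adjusted p 0.0249), but it was well above background on 1 control array and on no silenced array. It has only a bound in silenced cells, which allows no fold, and its call was lost with the row of the slide as a block (adjusted p 0.0615), with normexp (0.0697), and without control array 2 or 4 or silenced array 1 or 2 (0.0582 to 0.0814).

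Cycs, the carrier between complexes III and IV, was not called. Its brightest probe read 15.37, 15.52, 15.70 and 15.46 on the control arrays and 15.41, 15.21, 15.56 and 14.99 on the silenced arrays in log2 signal. The groups overlapped, silenced array 4 was lowest, and the difference was -0.22 (SE 0.20, limma adjusted p 0.472). A dimmer probe read 12.14, 12.29, 12.82 and 12.40 on the control arrays and 12.62, 12.37, 13.04 and 11.94 on the silenced arrays, a difference of 0.08 (SE 0.27) with the opposite sign.

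In complex IV no gene was called either. Of the ubiquitous subunits 7 of 9 were above 0 with a median of 0.28. The 9 are Cox4i1, Cox5a, Cox6a1, Cox6b1, Cox6c, Cox7a2, Cox7b, Cox7c and Cox8a. Over all genes 8485 of 19284 were above 0. The share was also high in related lists described below, 34 of 44 genes with a symbol starting with Nduf and 18 of 25 complex IV assembly genes. Cox6a1 read 15.99, 16.11, 16.48 and 16.32 on the control arrays and 16.66, 16.74 and 16.86 on silenced arrays 1, 2 and 3 in log2 signal. The 3 silenced values were all above every control, and the spot of array 4 was left out because its pixels were flagged as not uniform, so the fit used 3 silenced arrays. The difference was 0.53 (SE 0.22, limma adjusted p 0.115), and it was called with normexp at 0.53. It was also called with the percentile shift, at 0.84 (adjusted p 0.0102), and without masking of dim spots, at 0.53 (adjusted p 0.0400). It was not called with cyclic loess, at 0.36 (adjusted p 0.0999), or in the authors' values, at 0.35 (adjusted p 0.308). Cox4i1, the largest nuclear-encoded subunit, read 15.18, 15.49, 15.68 and 15.57 on the control arrays and 15.82, 16.04 and 15.83 on silenced arrays 1, 3 and 4 in log2 signal. Here the spot of silenced array 2 was left out for the same flag, the other 3 were above every control, and the difference was 0.42 (SE 0.22, limma adjusted p 0.202).

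Cox6b1, which faces the intermembrane space and bridges the monomers of the dimer, read 11.54, 11.79, 11.11 and 11.76 on the control arrays and 12.39, 12.05, 12.23 and 11.73 on the silenced arrays in log2 signal. Silenced arrays 1 to 3 were above every control, and array 4 lay within the control range. The difference, 0.55 (SE 0.24, limma adjusted p 0.122), was the most positive of the subunits, and it was 0.68 (adjusted p 0.0428) without silenced array 4. Cox7a2 read 14.03, 14.23, 14.04 and 14.35 on the control arrays and 14.79, 14.54, 15.03 and 13.84 on the silenced arrays in log2 signal. Its silenced arrays split in the same way, array 4 being the lowest of all 8, and the difference was 0.38 (SE 0.27, limma adjusted p 0.334), or 0.62 (adjusted p 0.0337) without that array. Cox6c differed by 0.28 (SE 0.22), Cox5a by 0.23 (SE 0.18) and Cox7b, which read 13.95, 14.04, 14.07 and 14.03 on the control arrays and 14.37, 14.33, 14.27 and 13.84 on the silenced arrays, by 0.18 (SE 0.19). With cyclic loess Cox4i1, Cox6b1, Cox6c, Cox7a2 and Cox7b were called higher, between 0.40 and 0.71.

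Cox8a and Cox7c were the ubiquitous subunits with negative differences. Cox8a read 15.72, 15.82, 16.20 and 15.87 on the control arrays and 15.82, 15.80, 15.98 and 15.84 on the silenced arrays in log2 signal, with overlapping groups and a difference of -0.04 (SE 0.19). Cox7c read 13.95, 14.20, 14.08 and 14.25 on the control arrays and 13.89, 13.63, 14.02 and 13.37 on the silenced arrays on its brightest probe. Silenced arrays 1, 2 and 4 were below every control, and the difference was -0.39 (SE 0.21, limma adjusted p 0.203). The other Cox7c probe, which spans an intron, read 12.78, 12.83, 12.79 and 12.84 on the control arrays and 13.03, 12.94, 13.10 and 12.50 on the silenced arrays, a difference of 0.08 (SE 0.20). Cox7a2l, which helps complexes III and IV to associate in supercomplexes, differed by 0.31 (SE 0.24, limma adjusted p 0.382), and by 0.50 (adjusted p 0.0366) with cyclic loess.

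Of the 7 tissue-restricted forms of complex IV, 6 were tested and none was called. Their median difference was -0.16, 2 of 6 above 0, and its sign turned with the setting. It was 0.18 with cyclic loess, 0.17 with the row of the slide as a block, 0.16 from the authors' values, 0.11 with the percentile shift and 0.085 without silenced array 4. Cox6a2, the heart and skeletal muscle form of subunit VIa, read 9.57, 9.70, 9.60 and 9.49 on the control arrays and 9.64, 9.15, 9.99 and 8.43 on the silenced arrays in log2 signal. The first 3 silenced arrays bracketed the controls and array 4 was the lowest, and the difference was -0.29 (SE 0.31, limma adjusted p 0.557). Cox7a1, the heart and muscle form of VIIa, read 10.05, 9.99, 10.33 and 9.87 on the control arrays and 10.76, 10.48, 10.67 and 9.93 on the silenced arrays. Its first 3 silenced arrays exceeded every control, and the difference was 0.40 (SE 0.23, limma adjusted p 0.248), or 0.58 (adjusted p 0.0378) without array 4. Cox8b, the heart and muscle form of VIII, read 8.21, 8.27, 8.53 and 7.93 on the control arrays and 8.53, 7.88, 8.65 and 7.09 on the silenced arrays, with overlapping groups and a difference of -0.20 (SE 0.34).

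Cox4i2, the lung form of subunit IV, read 8.42, 9.04, 9.11 and 8.78 on the control arrays and 8.91, 8.92, 8.83 and 8.16 on the silenced arrays in log2 signal. The groups overlapped, and the difference was -0.13 (SE 0.25). Cox6b2, the testis form of VIb, read 5.75, 5.93, 5.62 and 5.54 on the control arrays and 6.40, 6.01, 6.54 and 5.94 on the silenced arrays. Its silenced values were all above the controls, but 2 silenced arrays and none of the controls were well above background. Against a bound set by background for the controls, the silenced mean was 1.12-fold higher. That mean includes the 6.01 and 5.94, which were not well above background, so 1.12-fold is not a firm minimum. The fitted difference was 0.51 (SE 0.21, limma adjusted p 0.115), and the gene was not called. Cox7b2, another testis form, read 6.06, 6.40, 7.74 and 6.51 on the control arrays and 7.84, 5.52, 6.61 and 5.72 on the silenced arrays, scattered in both groups, with a difference of -0.26 (SE 0.53). Cox8c, likewise of testis, gave no value on any array. Of 7 markers of heart and adult muscle, the 6 with a value on every array (all but Mb) had a summed signal of 5912 to 7309 in controls and 4244 to 6073 in silenced cells. Actn3 was the 1 marker below every control on all silenced arrays, and none was above.

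**Figure D3:**
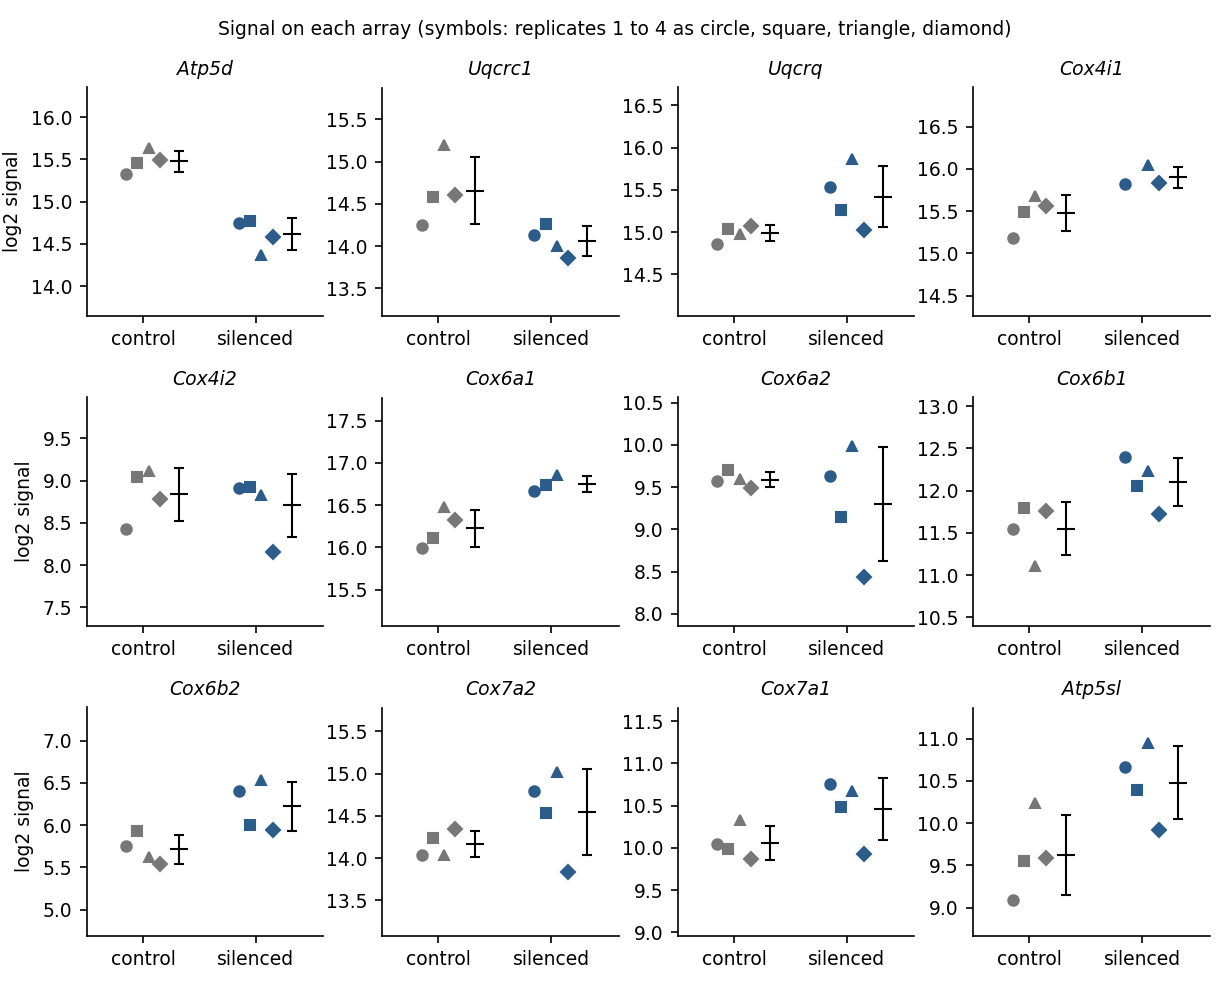
Log2 signal of 12 members on each array, with the mean ± SD of the group to the right of its points. Every panel spans the same width on the log2 axis, but levels cannot be compared between panels. Atp5d is lower on every silenced array than on any control, and silenced array 4 (diamond) is the lowest silenced value in every panel but Atp5d, Cox4i1 and Cox6a1, the last having no value there.

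In ATP synthase 1 of 15 genes was called and the median difference was 0.04. The F1 head is built of Atp5a1 (alpha) and the catalytic Atp5b (beta), and a central stalk of Atp5c1 (gamma), Atp5d (delta) and Atp5e (epsilon) turns inside it. Atp5d read 15.32, 15.45, 15.63 and 15.49 on the control arrays and 14.74, 14.77, 14.37 and 14.58 on the silenced arrays in log2 signal. Every silenced array was below every control, the gap between the nearest arrays being wider than the range of either group. The difference was -0.86 (SE 0.19, limma adjusted p 0.0106), which left 55.1% of the control signal. It was -0.72 (adjusted p 0.00645) with cyclic loess and -0.85 (adjusted p 0.00939) without silenced array 4. It was not called with the percentile shift, at -0.30 (adjusted p 0.189), where the all-gene median was 0.29, nor with the row of the slide as a block, at -0.82 (adjusted p 0.0689), the replicate number as a block (adjusted p 0.0501) or a Bonferroni correction. Within the rows of the slide it was -0.73 and -0.92. The other Atp5d probe was positive and significant on 3 control arrays, was well above background on none of the 8, and was not tested. The probe measured here lies on chromosome 10, 79608250 to 79608309 on the plus strand (build mm9), and its first 30 bases are shown because it was the only brightest probe called.
Atp5d: gtattgaggccaatgaagccctagtgaagg

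None of the remaining subunits of the head and central stalk was called by its brightest probe. Atp5a1 read 15.14, 15.15, 15.71 and 15.39 on the control arrays and 15.51, 15.50, 15.72 and 15.23 on the silenced arrays in log2 signal, a difference of 0.14 (SE 0.21), and Atp5b read 16.31, 16.34, 16.25 and 16.32 on the control arrays and 16.32, 16.25, 16.05 and 16.25 on the silenced arrays, a difference of -0.09 (SE 0.17). Both genes had another probe nearer the 5′ end that was called lower, described below. Atp5c1 differed by 0.03 (SE 0.22) and Atp5e by -0.00 (SE 0.23), the latter with control array 2 missing.

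The c ring, which the proton flow turns, is built from a single mature peptide encoded by Atp5g1, Atp5g2 and Atp5g3. Atp5g2, spotted 10 times on each array, read 16.21, 16.17, 16.06 and 16.33 on the control arrays and 16.38, 16.41, 16.62 and 16.43 on the silenced arrays in log2 signal. Every silenced array was above every control, by a small step, and the difference was 0.26 (SE 0.18, limma adjusted p 0.319). The spread between the 10 spots was between 0.04 and 0.25 (SD, log2). Atp5g1 read 15.47, 15.63, 15.69 and 15.59 on the control arrays and 15.90, 15.58, 15.85 and 15.77 on the silenced arrays on its brightest probe, with overlapping groups and a difference of 0.18 (SE 0.18). A second Atp5g1 probe read 14.41, 14.64, 14.87 and 14.67 on the control arrays and 14.15, 14.13, 14.09 and 13.99 on the silenced arrays, all silenced arrays below every control, a difference of -0.56 (SE 0.18, limma adjusted p 0.0542). The last, at the 3′ end, read 11.60, 11.97, 11.78 and 11.97 on the control arrays and 12.10, 11.78, 12.05 and 11.15 on the silenced arrays and differed by -0.06 (SE 0.25). Atp5g3 read 15.40, 15.49, 15.35 and 15.45 on the control arrays and 15.54, 15.53, 15.47 and 15.33 on the silenced arrays, a difference of 0.04 (SE 0.17). Its other probe read 10.01, 10.29, 10.85 and 10.32 on the control arrays and 9.67, 9.62, 9.78 and 8.98 on the silenced arrays, again with no overlap, and was called lower, at -0.86 (SE 0.26, limma adjusted p 0.039). That call was lost with the row of the slide as a block (adjusted p 0.152), with the replicate number as a block (0.0619), and without control array 2, 3 or 4 or silenced array 1 or 2 (0.0668 to 0.0939).

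The peripheral stalk (Atp5f1, Atp5h, Atp5j and Atp5o) holds the head still. Atp5f1, subunit b, read 15.17, 15.39, 15.56 and 15.38 on the control arrays and 15.09, 14.94, 15.26 and 14.80 on the silenced arrays in log2 signal. Silenced arrays 1, 2 and 4 were below every control, and the difference was -0.35 (SE 0.19, limma adjusted p 0.219). A second bright Atp5f1 probe gave -0.46 (SE 0.20) without overlap between groups, and a dim one -0.10 (SE 0.56). Atp5o differed by 0.23 (SE 0.18), every silenced array above every control, Atp5h by 0.05 (SE 0.18) and Atp5j by -0.14 (SE 0.19). Of the small membrane subunits, Atp5k (subunit e) read 14.45, 14.58, 14.75 and 14.63 on the control arrays and 15.05, 14.90, 15.26 and 14.70 on the silenced arrays in log2 signal. Silenced arrays 1, 2 and 3 were above every control and array 4 below control 3. The difference was 0.37 (SE 0.20, limma adjusted p 0.2), 0.55 (adjusted p 0.00744) with cyclic loess. Atp5j2 (subunit f) read 14.55, 14.74, 14.68 and 14.79 on the control arrays and 15.02, 14.84, 15.25 and 14.58 on the silenced arrays and differed by 0.23 (SE 0.20), or by -0.25 (SE 0.27) on a dim probe that read 6.84, 6.82, 6.94 and 7.31 on the control arrays and 6.99, 6.96, 6.98 and 5.99 on the silenced arrays. Atp5l (subunit g) read 15.30, 15.47, 15.62 and 15.42 on the control arrays and 15.50, 15.57, 15.91 and 14.79 on the silenced arrays on its brightest probe, a difference of -0.01 (SE 0.25), and 14.68, 14.90, 15.02 and 14.90 on the control arrays and 15.12, 15.00, 15.18 and 14.76 on the silenced arrays on the other, a difference of 0.14 (SE 0.19).

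The mtDNA-encoded subunits that the array carries lay on the other side of 0 from most of these partners. Cytochrome b (CYTB) differed by -0.21 (SE 0.19), COX1 by -0.18 (SE 0.19) and COX2 by -0.27 (SE 0.19), none of them called. ATP8, a small membrane subunit of ATP synthase, read 13.86, 14.01, 13.65 and 14.13 on the control arrays and 13.34, 13.15, 12.92 and 12.64 on the silenced arrays in log2 signal. Every silenced array was below every control, and the difference was -0.90 (SE 0.22, limma adjusted p 0.017), or -0.70 (adjusted p 0.00611) with cyclic loess. It was not called with the row of the slide as a block (adjusted p 0.0859), being -0.50 and -1.22 within the rows, or with the percentile shift, at -0.36 (adjusted p 0.0636). Thus 1 of 4 was lower, where 14.0% of all genes were, and the median was -0.24, which turned to 0.20 with the percentile shift.

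Among genes that assemble these complexes, 25 of complex IV were tested, of which Coa5 was higher, at 1.00 (SE 0.28, limma adjusted p 0.0311), and Sco2, a copper chaperone, was lower, at -0.87 (SE 0.21, limma adjusted p 0.0151). These single calls stand beside 6.02% of all genes higher and 14.0% lower. Neither was called with the row of the slide as a block (adjusted p 0.0825 and 0.0761), and Sco2 was not with the percentile shift (adjusted p 0.102). Within the rows Coa5 was 1.05 and 1.12, and Sco2 -0.81 and -0.91. The median difference of the list was 0.26, and after cyclic loess 14 of 25 were higher and 1 lower, where 22.2% of all genes were higher and 14.3% lower. Genes of the list that were not called include these examples. Sco1, another copper chaperone, differed by 0.93 (SE 0.32, limma adjusted p 0.0604), Surf1 by 0.60 (SE 0.22, limma adjusted p 0.0724), and Cox10, which makes haem O, by -0.59 (SE 0.20, limma adjusted p 0.0618). None was called among 5 tested genes of complex III assembly (median 0.33), 5 of ATP synthase assembly and regulation (0.13), 6 of complex II and its assembly (0.08) and 3 of supercomplex formation and haem attachment (0.04). Genes with a symbol that starts with Nduf, mostly subunits and assembly factors of complex I, had 1 of 44 higher and a median of 0.24. With cyclic loess 19 of them were higher (43.2%) and 1 lower. In the authors' values 24 were higher (54.5%) and with the percentile shift 33 (75%). The shares of all genes higher were 22.2%, 21.2% and 29.9%. The rise of the members under these settings was thus not particular to them.

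The 3 members that are not subunits were measured separately. Atp5sl, named Dmac2 in RefSeq, is an assembly factor of complex I. Its brightest probe read 9.09, 9.55, 10.24 and 9.59 on the control arrays and 10.66, 10.39, 10.95 and 9.92 on the silenced arrays in log2 signal, a difference of 0.86 (SE 0.30, limma adjusted p 0.0673) with overlap between silenced array 4 and control array 3. It was called at 1.05 without silenced array 4, at 1.07 without control array 3 and at 1.06 with cyclic loess. Another probe of the gene, 561 bases towards the 5′ end, read 8.08, 8.55, 9.43 and 8.56 on the control arrays and 7.65, 7.91, 6.86 and 7.06 on the silenced arrays. All silenced arrays were below every control there, and it was called lower, at -1.28 (SE 0.34, limma adjusted p 0.0229). That call was lost with the row of the slide as a block (adjusted p 0.103), with cyclic loess (0.0601), in the authors' values (0.129), without masking of dim spots (0.14), and without control array 2 or 4 or silenced array 3 (0.0555 to 0.0604). Atp5s (factor B, named Dmac2l in RefSeq) exceeded background clearly on 1 silenced array and on none of the controls, and the pseudogene Atp5c1-ps differed by -0.29 (SE 0.22).

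In several members the difference varied with the place of the probe along the gene. Probes were ordered by genomic position. In Atp5f1, Atp5g1, Atp5g3 and Atp5l the outer probes belong to different transcript records, so their contrast need not lie along a single transcript. In all, 6 of 65 tested member probes were called lower and none higher, where 18.4% of all tested probes were lower and 4.79% higher. Besides the Atp5d probe and the dim Uqcrb probe, they were the probes nearer the 5′ end of Atp5a1, Atp5b, Atp5g3 and Atp5sl. With the row of the slide as a block the Atp5b probe alone was called, at an adjusted p of 0.0215, where 8.98% of all probes were lower. Of 15 members with 2 or more probes well above background on all 8 arrays, Cyc1 and Atp5k could not be ordered, since the array design gives the brighter Cyc1 probe no position and puts the Atp5k probes on different sequences. The Atp5k probes differed by 0.37 and 0.29. In the other 13, the difference of the probe nearest the 3′ end was more positive than that of the probe nearest the 5′ end in all 13, where this held for 73.2% of 3910 genes. When the 3′ minus 5′ contrast itself was fitted with limma, 6 of 13 were called, where 38.4% of all genes were called in that direction. They were Atp5sl, Atp5b, Atp5a1, Atp5g3, Cox7c and Atp5h. With the row of the slide as a block the first 3 were called, where 27.8% of all genes were, and Atp5g3 (adjusted p 0.0513), Cox7c (0.0585) and Atp5h (0.119) were not. Cox7c was also lost without control array 2 (0.0554) or 4 (0.0666), and Atp5h with the replicate number as a block (0.0585) and without control array 1, 2 or 4 or silenced array 1 or 3 (0.0556 to 0.0836). The median contrast was 0.40 in members and 0.43 over all genes, and with cyclic loess 12 of 13 were positive.

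Atp5b showed the gradient along its length. Its probe nearest the 5′ end spans 679 bases of genome (chromosome 10, 127521478 to 127522156, build mm9) and read 12.49, 12.93, 12.64 and 12.76 on the control arrays and 11.17, 11.82, 10.76 and 11.27 on the silenced arrays in log2 signal. All silenced arrays were below every control, and it was called lower, at -1.45 (SE 0.25, limma adjusted p 0.00386). The middle probe read 16.23, 16.32, 16.40 and 16.27 on the control arrays and 15.98, 16.10, 15.76 and 16.14 on the silenced arrays, without overlap but not called, at -0.31 (SE 0.18, limma adjusted p 0.251). The probe nearest the 3′ end (127527255 to 127527314) was the brightest, at -0.09. The first 30 bases of the outer probes are shown, since they belong to 1 gene and only the first was called.
Atp5b, 5′ probe: aatgccattggagaacttattgatgagaga
Atp5b, 3′ probe: acaagagccttgattgaagatgtgatgttc

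Atp5a1 repeated this with 2 probes. The one nearer the 5′ end read 13.96, 14.35, 14.46 and 14.27 on the control arrays and 13.18, 13.57, 12.54 and 13.23 on the silenced arrays in log2 signal, all silenced arrays below every control, and was called lower, at -1.13 (SE 0.25, limma adjusted p 0.0113). That call was lost with the row of the slide as a block (adjusted p 0.0558), the percentile shift (0.0962) and no masking of dim spots (0.0591). The contrast between its probes was 1.27 (SE 0.27, limma adjusted p 0.00556).

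The contrast was also called over short distances. In Atp5h, subunit d of the stalk, 3 probes centred within 123 bases of each other (chromosome 11, from 115277193 on the 5′ side to 115277011 on the 3′ side, minus strand, build mm9) had differences of 0.05, 0.21 and 0.46. The last read 14.68, 14.82, 14.94 and 14.87 on the control arrays and 15.28, 15.09, 15.62 and 15.13 on the silenced arrays in log2 signal, every silenced array above every control. None of the 3 was called by itself, whereas the contrast between the outer probes was 0.40 (SE 0.13, limma adjusted p 0.0331). In Atp5sl the contrast was 2.15 (SE 0.31, limma adjusted p 0.000804) over 561 bases. Stretches of 30 bases from the outer probes of both genes are given, with capitals marking a polyadenylation signal (AATAAA or ATTAAA), the mark of a 3′ end, where the probe holds it. The Atp5sl probes lie on chromosome 7, 26409949 to 26410008 and 26410510 to 26410569, plus strand, build mm9.
Atp5h, 5′ probe: ctggagaaaatgaggaacataattcccttt
Atp5h, 3′ probe: cggccgacatgaAATAAAacatttaaatag
Atp5sl, 5′ probe: tggagagtctgaagtcttctcacagtctgg
Atp5sl, 3′ probe: gtgattctttatATTAAAcgtctgctgttc

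**Figure D4:**
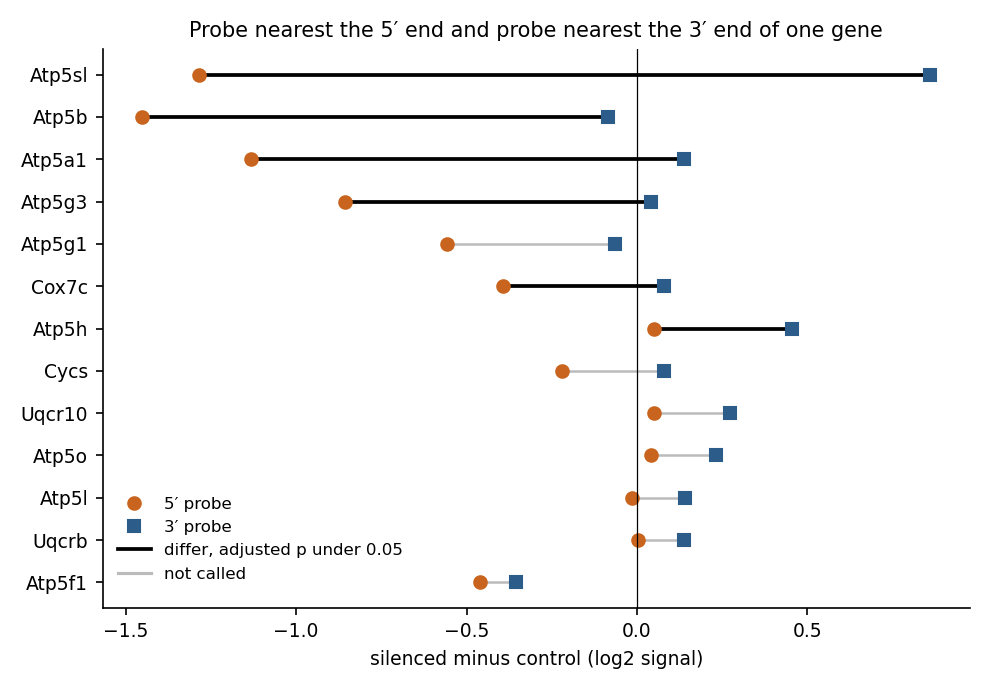
Difference in log2 signal, silenced minus control, of the probe nearest the 5′ end (circle) and nearest the 3′ end (square) of the 13 members with at least 2 probes that were well above background on all 8 arrays and placed on 1 chromosome and strand. Black lines mark the 6 genes whose contrast was called at an adjusted p under 0.05. The square lies to the right of the circle in all 13.

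A probe that holds a polyadenylation signal represented 13 of 44 members (29.5%) and 17.2% of all genes. The median difference of these members was 0.23, beside 0.04 for the other 31 members. Over all genes the corresponding medians were 0.19 and -0.15. The part of probe position in the members' differences was not tested.

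The promoters of these genes were searched for the motifs of regulators known for nuclear-encoded mitochondrial genes. RefSeq windows (assembly GRCm38.p6, 250 bases before to 50 after each start) matched 34 of the 45 members. The NRF1 consensus was in 8 of 34 (23.5%) and in 5.19% of 27025 genes with a window, on either strand. The GABP (NRF-2) letters CCGGAAG were in 10 (29.4%) and in 9.93% of all, the YY1 letters AANATGGCG in 4 (11.8%) and 2.76%, and the ESRRA letters TCAAGGTCA in 1 (2.94%) and 0.466%. These are matches of letters, not of bound sites, and some genes have more than 1 window. The 27025 genes were not matched to the members for base composition or expression, so the shares do not show an enrichment. Atp5h, Atp5k and Cox6a1 held both NRF1 and GABP motifs, and stretches before their starts are shown as examples, with the matches in capitals. The GABP matches of Atp5k and Cox6a1 lie outside the stretches shown. The Atp5d windows held none of the 4 motifs.
Atp5h, chr11:115419949-115420068, minus strand: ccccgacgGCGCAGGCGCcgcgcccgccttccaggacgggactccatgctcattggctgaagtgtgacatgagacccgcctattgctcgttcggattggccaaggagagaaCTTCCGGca
Atp5k, chr5:108434432-108434457, minus strand: tcactgcgGCGCATGCGCctttctgg
Cox6a1, chr5:115349009-115349128, minus strand: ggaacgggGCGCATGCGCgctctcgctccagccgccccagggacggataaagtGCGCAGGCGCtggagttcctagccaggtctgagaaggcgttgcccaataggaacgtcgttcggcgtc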

How the data were processed

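Cy3-labelled RNA of 4 control and 4 silenced C2C12 cultures, labelled by GEO as biological replicates, had been hybridised to 8 arrays on 1 slide read in 1 scan. The scanner files the authors deposited hold spot intensity on a linear scale, background-subtracted by Feature Extraction (12.0.0.7 per the file headers, 10.7.3.1 per the submitters' processing notes) and not normalized between arrays, with flags of 0 or 1 (units of other) for spot quality. A series table of intensity values, which the authors had scaled between arrays, was deposited as well.

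Following the study's methods, spots without the positive and significant flag were masked, and log2 of the deposited intensity was taken for the rest. Control spots and outlier-flagged spots were left out, arrays were quantile normalized, and spots of 1 probe averaged. The 28649 probes that kept 3 or 4 values per group entered 1 limma 3.58.1 model (lmFit, eBayes; R 4.3.3) with group as its only term. The study names a two-sided unequal-variance t-test for single genes after Pvt1 silencing, and a permutation t-test with Bonferroni correction for its fibre-type arrays. The former, here called the methods' t-test, was run as an alternative, adjusted by Bonferroni and by Benjamini-Hochberg. Calls were made at a Benjamini-Hochberg adjusted p under 0.05. The number of arrays limits the precision. Members, gene lists and tests were chosen with earlier results of these data known. Every member is named. Values on every array are given for called members, members whose probes differ in call or sign, paralogue sets, Cyc1, Cycs and the most extreme members of each complex.

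Gene symbols are those of the array design. The accessions of 57 of 69 member probes matched the RefSeq table, 5 under another symbol. Coordinates are of build mm9, except promoter windows (GRCm38.p6). Exon and UTR positions were not analysed here. A probe that was dim on all arrays of a group got a bound instead of a fold, the other group's mean against, per array, the higher of its own value and the lowest value well above background. The same replicate numbers did not mark shared deviations (correlations -0.02, 0.15, 0.20 and 0.06), so no pairing was used. Figures were drawn with matplotlib 3.10.9. The alternatives were other normalizations, background correction, masks, the authors' table, blocks, priors, tests, probes and each array left out. The 3′ against 5′ contrast and the values within slide rows were added after the data were seen.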

Additional observations from a re-analysis of the deposited data

Results flagged for a closer look

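Among 84 groups of 4 arrays, 1 value lay far from the other 3 of its group. Cox4i2 on silenced array 4 read 8.16 in log2 signal, while the other silenced arrays read 8.83 to 8.92. Chance marks about 1 group in 20 by this measure. Silenced array 4 was also the dimmest array.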

How the results depend on the processing

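The fall of Pvt1 kept its direction throughout, from -2.19 with normexp to -2.96 with only spots well above background, and from -2.66 to -3.14 when 1 array was left out. With the methods' t-test and Bonferroni it was -2.86 and not called. Members called higher, 0 as reported, numbered 28 with the percentile shift, 14 with cyclic loess, 14 in the authors' table, 16 with no masking of dim spots, 4 with the robust trended prior and 2 with normexp, and 0 to 6 when 1 array was left out, 6 without silenced array 4 and 1 without control array 3. Over all genes 7.39% were higher without control array 3, 15.3% without silenced array 4 and 2.99% to 3.83% without any other array. Of the 14 members under cyclic loess, 13 were also higher under both the percentile shift and the authors' table. Members called lower, 1 as reported, numbered 0 with the percentile shift, the slide row as a block and the methods' t-test with Bonferroni, 2 in the authors' table, with only spots well above background, with the robust trended prior and with probes averaged by gene, 6 with the dimmest probe of a gene, and 1 when any single array was left out. Over all genes the shares lower were 10.6% with the percentile shift, 5.97% with the slide row blocked, 0.0104% with Bonferroni, 12.2% in the authors' values, 19.6% with spots well above background, 15.7% with the robust prior, 15.4% for averaged probes and 18.8% for the dimmest probe. When 1 array was left out, 7.45% to 14.8% of all genes were lower. With the replicate number as a block no member was called (4.48% of all genes higher, 9.91% lower), Atp5d standing at an adjusted p of 0.0501. The median difference was 0.66 with the percentile shift, 0.02 with the mean of all probes, 0.23 relative to the median of all genes, and 0.03 to 0.21 when 1 array was left out. The 3′ probe exceeded the 5′ probe in 13 of 13 members without any 1 array and with the replicate block. The contrast was called in 3 with the slide row as a block, in 5 with the replicate block (40.4% of all genes) and in 4 to 7 when 1 array was left out (29.1% to 47.2% of all genes). Sign changes were most frequent with the percentile shift, in 16 members, of which Atp5j, at 0.44 (adjusted p 0.0384), and Atp5e, at 0.54 (adjusted p 0.0489), were called higher there. Of the 16, 11 had a reported difference under its SE. For the other 5, Uqcrc1 stood at 0.00043, Cox7c at 0.19, Atp5f1 at 0.20, Cycs at 0.33 and Atp5c1-ps at 0.30. With cyclic loess 8 members changed sign, 9 did in the authors' values and 9 without masking, 4 did with the row of the slide blocked, and 1 to 7 did when 1 array was left out, all under their SE and none called. With the probe nearest the 3′ end (for Cyc1 the only one with a position) Cyc1 was -0.091, Cox7c 0.081 and Cycs 0.081, which are also their values on the dimmest probe, as are -0.064 for Atp5g1 and 0.14 for Atp5l, reported at 0.18 and -0.01. On the dimmest probe Uqcrb (-1.31), Atp5a1 (-1.13) and Atp5g3 (-0.86) turned and were called lower, and averaged probes gave -0.36, -0.50 and -0.41 for these genes and -0.15 for Atp5g1. Atp5j2 was -0.011 with the mean of all probes and -0.25 with the dimmest probe, and Atp5sl -0.21 and, called lower, -1.28. The causes were not tested. The 5′ probe of Atp5b was called under all alternatives but Bonferroni, whereas the other called probes lost their calls as given above. With the methods' t-test and Benjamini-Hochberg adjustment 3 of 65 member probes were lower, of Atp5b, Atp5d and Atp5g1, where 2854 of 28649 tested probes were. Signs are given for all differences. Where the difference of an uncalled gene or probe was under its SE, the sign is no direction. With 4 arrays a group, a gene that was not called is not shown to be unchanged. More genes were called higher without silenced array 4, among members and among all genes.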
